A study of Mus musculus with 16 samples.

Results

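The transcription factors that start and carry forward neurogenesis in the embryonic cortex were examined in neural stem cells (NSC) with a knockdown of the long non-coding RNA RUS. These are 8 genes, chosen by name: the proneural factors Neurog1 and Neurog2, the intermediate progenitor factors Eomes and Insm1, and the neuronal differentiation factors Neurod1, Neurod2, Neurod4 and Neurod6. Each has 1 line among the 55471 lines of the expression table of each day. The cells were C57BL/6 mouse NSC from embryonic cortices (E15-16), grown with FGF2 and moved towards differentiation from day 5 by a change of medium. All 16 libraries had received a lentivirus, which carried either a scrambled shRNA (shRNA CON) or a single shRNA against RUS (shRNA RUS), 1 day after seeding. RNA was taken on day 5 and on day 7, with 4 libraries for each of these 4 groups. Embryos of both sexes were pooled for the cultures, and the 4 libraries of a group are called replicates, with RUS measured by RT-qPCR in as many experiments. Whether the libraries came from separate cultures is not stated, so p-values measure the spread between these libraries, which may be technical.

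In the developing cortex, proneural bHLH proteins such as Neurog2 pair with E proteins, bind E-box DNA and switch on both the next factors of the cascade and the Notch ligand Dll1. Notch signaling in the neighbouring cell induces Hes repressors, which in turn silence proneural genes, and Id proteins take E proteins away. Along the glutamatergic lineage, radial glia with Neurog2 give rise to intermediate progenitors with Eomes (also called Tbr2) and Insm1, after which Neurod1 and then Neurod2 and Neurod6 mark cells that become neurons.

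The promoters of 3 members are shown because a TATA-box word lies at the same place in each. RefSeq promoters (GRCm38.p6) were available for 7 of the 8 members, all but Insm1. Of the 250 bases before the start, TATATAA, searched on both strands, occurs in Neurog2, Neurod1 and Eomes, with its first base 29, 31 and 30 bases before the RefSeq start. It occurs in 3.0% of the 32851 promoters of the table, and it was chosen after these sequences had been read. Capitals mark TATATAA. The Neurog2 stretch is chr3:127632886-127633134 on the plus strand, the Neurod1 stretch chr2:79456650-79456679 on the minus strand and the Eomes stretch chr9:118477939-118478188 on the plus strand. For Neurod1, 30 bases are shown, since they lie inside the span that GENCODE gives to the gene.
Neurog2: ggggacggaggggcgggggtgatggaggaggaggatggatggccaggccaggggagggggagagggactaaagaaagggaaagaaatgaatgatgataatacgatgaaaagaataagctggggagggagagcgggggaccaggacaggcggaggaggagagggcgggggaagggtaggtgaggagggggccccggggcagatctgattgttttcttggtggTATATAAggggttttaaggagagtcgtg
Neurod1: cagcaactcggcTATATAAccctagcgccc
Eomes: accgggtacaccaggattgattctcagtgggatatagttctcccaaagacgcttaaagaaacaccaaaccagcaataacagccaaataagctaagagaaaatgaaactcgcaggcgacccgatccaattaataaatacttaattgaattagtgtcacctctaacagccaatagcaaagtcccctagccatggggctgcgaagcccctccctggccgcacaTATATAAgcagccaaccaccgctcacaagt

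The E-box CANNTG, the same word on both strands, occurs in 66.2% of all promoters of this length. Among the members it was found once before Neurod1 (CATATG), at 2 places before Neurod6 (CAAATG and CAGTTG) and at 3 places before Neurod2 (as CAGATG, then as CATGTG and then as CATATG). The form CAGATG, which occurs in 14.4% of all promoters, was present before Neurod2, and the form CAGCTG, in 13.0% of all promoters, was found before none of the 7. The word CACNAG, known as an N-box of Hes repressors, occurs in 36.7% of all promoters and was found before Neurod6, Eomes and Neurod4. These matches describe the letters in 250 bases and say nothing of binding.

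Values are TPM (a transcript abundance that accounts for transcript length and sums to the same total in each library). The deposited TPM have 2 decimals, and hold no read numbers, so the depth of the libraries is unknown. A library listed 25615 to 29126 genes above 0. For tests, TPM were divided by a library factor, 0.1 was added, and the log2 was tested with limma for each gene whose mean reached 0.1 TPM, which gave 22581 genes on day 5, 24606 on day 7 and 23789 over both days. A gene was called when its two-sided p, adjusted over all genes by Benjamini-Hochberg, was under 0.05. Log2 differences are on this scale, so they understate the change of genes near 0.1 TPM. The median log2 difference of all genes between shRNA RUS and shRNA CON was −0.061 on day 5 and −0.029 on day 7, and −0.205 on day 5 with TPM as deposited. RUS itself, listed as Gm20754, had 0.24, 0.11, 0.18 and 0.16 TPM in shRNA CON and 0.05, 0, 0.12 and 0.32 TPM in shRNA RUS on day 5. On day 7 it had 0.70, 0.72, 0.26 and 0.54 TPM in shRNA CON and 0.54, 0.38, 0 and 0.04 TPM in shRNA RUS. The groups overlapped on both days, and Gm20754 was not called on day 5 (limma, adjusted p = 0.519) or on day 7 (limma, adjusted p = 0.114), with means at 71.0% and 43.2% of the control. The labels of the libraries are thus not checked by the TPM of their target. The paper reports lower RUS with shRNA RUS by RT-qPCR in this experiment, and that measure was not used here. Of the radial glia markers, Vim (8918 TPM), Fabp7 (3510 TPM) and Slc1a3 (868 TPM) were the highest in shRNA CON on day 5, and astrocytes express these genes too. Nes and Pax6, chosen after their values were seen, had 56.0 and 56.8 TPM and the cortical factor Emx1 2.45 TPM, beside 1797 TPM of the astrocyte marker Gfap.

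The members fell into an abundant one and 7 that were scarce. Insm1 had between 5.82 and 13.99 TPM in the 16 libraries, while no other member exceeded 1.15 TPM. Neurog2, Neurod1 and Eomes lay between 0.06 and 1.15 TPM, and Neurog1, Neurod2, Neurod4 and Neurod6 between 0 and 0.10 TPM. Because the last 4 stayed below a mean of 0.1 TPM, 4 of the 8 members entered the main tests: Insm1, Neurog2, Neurod1 and Eomes. On day 5 Neurod1 reached this minimum through shRNA CON alone (mean 0.155 TPM, against 0.0925 TPM in shRNA RUS). The deposited mean of normalized counts over the 8 libraries of a day shows how few reads lie behind the lower values. It was 825 on day 5 and 527 on day 7 for Insm1, 14.5 and 35.6 for Neurog2, 8.50 and 25.7 for Neurod1, and 44.7 and 20.5 for Eomes. For the 4 scarcest members it lay between 0.238 and 2.88.

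**Figure D1:**
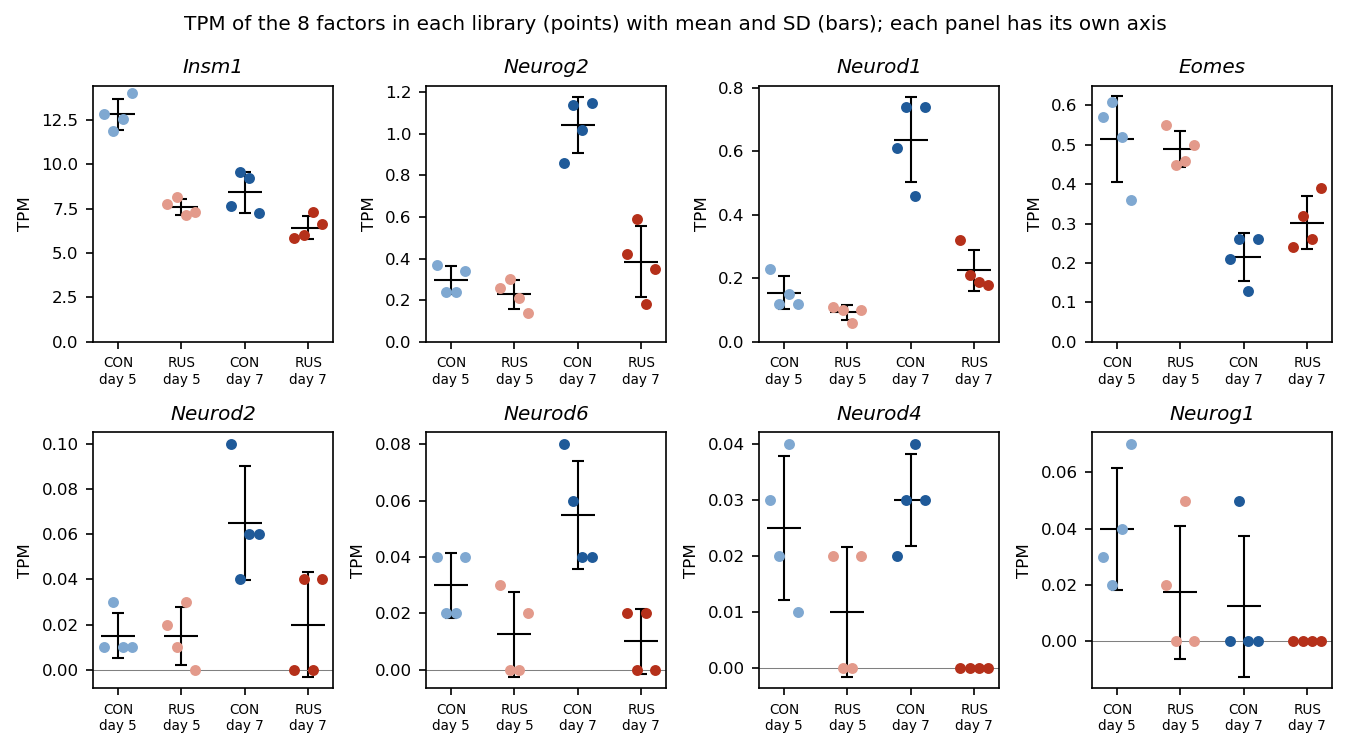
TPM of the 8 factors (vertical axis, a separate linear scale in each panel) in the 4 groups, with a point for each library and bars for mean and SD of 4 libraries. Neurog2 and Neurod1 stand high in shRNA CON on day 7 (0.86 to 1.15 and 0.46 to 0.74 TPM) and lower in the 3 other groups, Insm1 is highest in shRNA CON on day 5, and Eomes is higher on day 5 than on day 7 within each shRNA.

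In shRNA CON, the change from day 5 to day 7 split the members. Neurog2 and Neurod1 rose, and Insm1 and Eomes fell. These counts, 2 higher and 2 lower of 4 tested, stand beside 26.9% of all genes called higher and 21.6% called lower between these days.

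Neurog2, which commits cortical progenitors to the glutamatergic lineage, had 0.37, 0.24, 0.24 and 0.34 TPM on day 5 and 0.86, 1.14, 1.02 and 1.15 TPM on day 7 in shRNA CON. The days did not overlap, and the mean TPM was 3.50-fold higher on day 7 (log2 difference 1.40, SE 0.259, limma, adjusted p = 3.11e-04). Neurod1, a target of Neurog2 that drives neuronal differentiation, had 0.23, 0.12, 0.15 and 0.12 TPM on day 5 and 0.61, 0.74, 0.46 and 0.74 TPM on day 7. It was 4.11-fold higher in mean TPM on day 7, again without overlap (log2 difference 1.42, SE 0.221, limma, adjusted p = 6.57e-05).

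Insm1, a zinc-finger factor of basal progenitors and newborn neurons, had 12.81, 11.85, 12.55 and 13.99 TPM on day 5 and 7.63, 9.55, 9.20 and 7.25 TPM on day 7 in shRNA CON. Its mean TPM on day 7 was 65.7% of that on day 5, and the days did not overlap (log2 difference −0.76, SE 0.0962, limma, adjusted p = 8.39e-06). The size of this fall depended on the scaling, with −0.61 with TPM as deposited and −0.88 with quantile normalization. Eomes, the T-box factor that defines intermediate progenitors, had 0.57, 0.61, 0.52 and 0.36 TPM on day 5 and 0.21, 0.26, 0.13 and 0.26 TPM on day 7. Every library of day 7 lay below every library of day 5, and the mean was 41.7% of that on day 5 (log2 difference −1.08, SE 0.203, limma, adjusted p = 3.84e-04). In RNA of whole cultures, fewer cells of a type and less RNA per cell cannot be told apart.

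The order of the levels changed with the days. In shRNA CON on day 5, Insm1 (12.8 ± 0.891 TPM, SD, n = 4) was followed by Eomes (0.515 ± 0.110), Neurog2 (0.297 ± 0.0675) and Neurod1 (0.155 ± 0.0520), and libraries of Eomes and Neurog2 overlapped. On day 7, Insm1 (8.41 ± 1.14 TPM) was followed by Neurog2 (1.04 ± 0.135), Neurod1 (0.637 ± 0.133) and Eomes (0.215 ± 0.0614), with no overlap between neighbours. Eomes thus moved from the second to the fourth place. In shRNA RUS on day 7, Neurog2 (0.385 ± 0.170 TPM), Eomes (0.302 ± 0.0675) and Neurod1 (0.225 ± 0.0645) overlapped each in turn. In each group, the 4 scarcest members overlapped with their neighbours in the order and could not be ranked.

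On day 5, RUS knockdown went with less Insm1. The libraries with shRNA RUS had 7.75, 8.16, 7.12 and 7.33 TPM, all below the lowest library with shRNA CON (11.85 TPM), and their mean of 7.59 ± 0.462 TPM was 59.3% of the control (log2 difference −0.59, SE 0.0858, limma, adjusted p = 8.68e-04). Insm1 was the only one of the 4 tested members called on day 5, where 17.9% of all genes were called lower and 14.8% higher. With TPM as deposited, 77.3% of the calls over all genes on day 5 were lower, against 54.6% with the library factors, and Insm1 was called lower with both.

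The other members did not pass the test on day 5. Neurog2 had 0.26, 0.30, 0.21 and 0.14 TPM in shRNA RUS, 2 of them inside the shRNA CON range of 0.24 to 0.37 TPM and 2 below it (log2 difference −0.17, 95% interval −0.76 to 0.41, limma, adjusted p = 0.652; 0.016 with quantile normalization, and −0.0084 without replicate 4 of shRNA RUS). Neurod1 had 0.11, 0.10, 0.06 and 0.10 TPM in shRNA RUS, all below the lowest control library at 0.12 TPM as deposited, a pattern that 25.9% of all genes showed on this day (log2 difference −0.31, 95% interval −0.92 to 0.31, limma, adjusted p = 0.430; −0.055 with quantile normalization, and −0.19 without replicate 1 of shRNA CON). Its mean in shRNA RUS was 0.0925 TPM, so it reached the minimum on this day through shRNA CON alone. After division by the library factors the groups overlapped, with replicate 1 of shRNA RUS (0.120) above replicates 2 and 4 of shRNA CON (0.117 and 0.115). Eomes had 0.55, 0.45, 0.46 and 0.50 TPM in shRNA RUS, inside the range of shRNA CON (log2 difference 0.088, 95% interval −0.35 to 0.53, limma, adjusted p = 0.770; −0.044 with TPM as deposited and −0.037 without replicate 4 of shRNA CON).

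On day 7, Neurog2 and Neurod1 were lower with RUS knockdown, at 36.9% and 35.3% of the control, and Insm1 was lower by less. Thus 3 of the 4 tested members were called lower and none higher, on a day on which 25.8% of all genes were called lower and 23.4% higher.

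Neurog2 had 0.42, 0.59, 0.18 and 0.35 TPM in shRNA RUS on day 7, against at least 0.86 TPM in each control library. Its mean was 36.9% of the control (log2 difference −1.30, SE 0.274, 95% interval −1.92 to −0.68, limma, adjusted p = 0.00315). Neurod1 had 0.32, 0.21, 0.19 and 0.18 TPM, against at least 0.46 TPM in each control library, and its mean was 35.3% of the control (log2 difference −1.18, SE 0.236, 95% interval −1.72 to −0.65, limma, adjusted p = 0.00229). For both genes the groups did not overlap, as for 24.2% of all genes with every shRNA RUS library below every shRNA CON library.

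Insm1 had 5.82, 5.99, 7.29 and 6.64 TPM in shRNA RUS on day 7, and the highest of these lay above the lowest control library (7.25 TPM). Its mean was 76.5% of the control (log2 difference −0.38, SE 0.106, limma, adjusted p = 0.0147). Eomes had 0.24, 0.32, 0.26 and 0.39 TPM in shRNA RUS and was the only tested member with a higher mean than in shRNA CON, 140.7% of it, but the groups overlapped and it was not called (log2 difference 0.36, 95% interval −0.22 to 0.94, limma, adjusted p = 0.283; 0.21 without replicate 3 of shRNA CON).

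**Figure D2:**
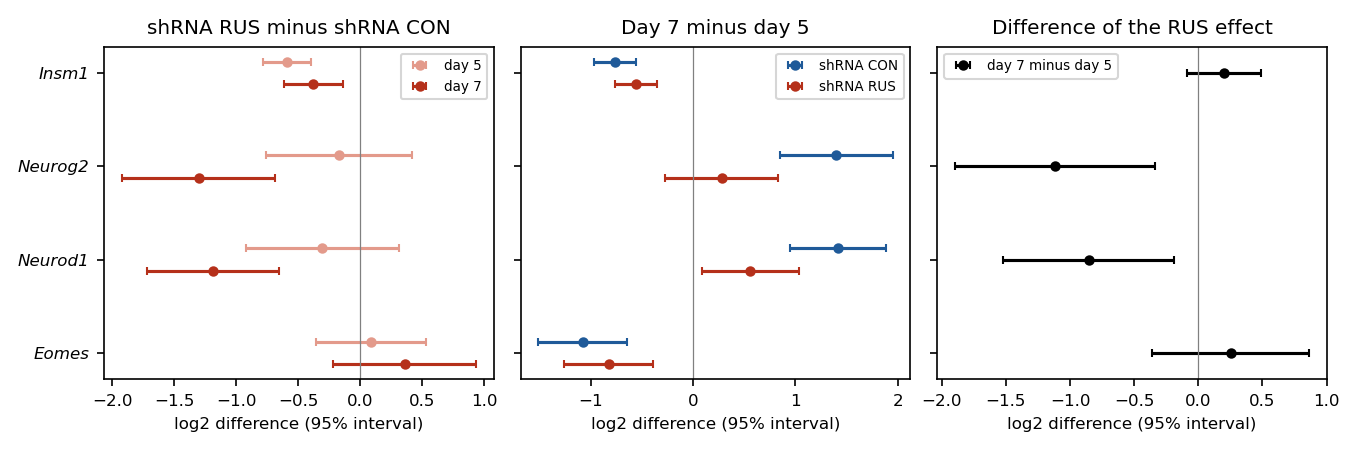
Log2 differences of the 4 tested members (points) with 95% intervals (bars) for shRNA RUS minus shRNA CON on each day (left), day 7 minus day 5 within each shRNA (middle) and the difference of the RUS effect between the days (right). Neurog2 and Neurod1 lie at −1.30 and −1.18 on day 7 and at −0.17 and −0.31 on day 5, and intervals that cross 0 are those of Neurog2, Neurod1 and Eomes on day 5, Eomes on day 7, Neurog2 between days in shRNA RUS, and Insm1 and Eomes on the right.

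The scarce members showed values of a few hundredths of a TPM. Neurod4, a bHLH factor of early neurogenesis, was listed at 0 in all 4 shRNA RUS libraries on day 7 and at 0.02, 0.03, 0.04 and 0.03 TPM in shRNA CON. Neurod6, a marker of pyramidal neurons, had 0.08, 0.06, 0.04 and 0.04 TPM in shRNA CON and 0.02, 0, 0.02 and 0 TPM in shRNA RUS on that day. The groups of both genes did not overlap, but how often this holds among genes this scarce was not counted, so nothing is read from it. Neurod2, which acts in maturing glutamatergic neurons, had 0.10, 0.04, 0.06 and 0.06 TPM in shRNA CON and 0, 0.04, 0 and 0.04 TPM in shRNA RUS, with a shared value of 0.04 TPM. Neurog1, the close relative of Neurog2, was listed at 0 in 7 of the 8 libraries of day 7 and had 0.05 TPM in replicate 2 of shRNA CON. When every gene above 0 in a library was tested, Neurod6 (limma, adjusted p = 0.0340) was called lower on day 7 beside 17% of 36386 genes, and Neurod2 was not (limma, adjusted p = 0.101). Neurod4 entered that test only through its shRNA CON libraries, so its values are given without a test. On day 5 none of the 4 was called in that test. Neurod2 had 0.01, 0.03, 0.01 and 0.01 TPM in shRNA CON on day 5, below each control library of day 7, and was called higher on day 7 without the minimum (limma, adjusted p = 0.0259; 17.4% of 38122 genes called higher). These calls rest on values of 0 to 10 steps of the deposited decimals.

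Within shRNA RUS, the members also changed between the days. Insm1 (7.12 to 8.16 TPM on day 5, 5.82 to 7.29 TPM on day 7) fell by 0.56 (log2, limma, adjusted p = 1.07e-04), and Eomes (0.45 to 0.55 TPM, then 0.24 to 0.39 TPM) fell by 0.82 (limma, adjusted p = 0.00236). The TPM of Insm1 overlapped between these days, and its mean TPM on day 7 was 84.8% of that on day 5. Its fall depended on the scaling, with a log2 difference of −0.24 with TPM as deposited (limma, adjusted p = 0.0429) and −0.72 with quantile normalization. Neurod1 (0.06 to 0.11 TPM, then 0.18 to 0.32 TPM) rose by 0.56 (log2, limma, adjusted p = 0.0382). That call was lost when replicate 2, 3 or 4 of day 5 or replicate 1 or 2 of day 7 of shRNA RUS was left out, with log2 differences between 0.43 and 0.59 and adjusted p between 0.0524 and 0.124 (limma; 0.00844 to 0.615 over all alternatives). With quantile normalization the difference was 0.14 (limma, adjusted p = 0.615), and with TPM as deposited 0.74 (limma, adjusted p = 0.00844). Neurog2 (0.14 to 0.30 TPM, then 0.18 to 0.59 TPM) overlapped between the days and was not called (log2 difference 0.28, limma, adjusted p = 0.368; −0.088 with quantile normalization). Without replicate 4 of day 5 or replicate 2 of day 7 of shRNA RUS its difference was 0.12 or 0.093, and without replicate 3 of day 7 it was 0.52. Thus 1 of 4 tested members was called higher and 2 lower, beside 35% and 25.8% of all genes.

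Whether RUS knockdown acted differently on the 2 days was tested directly, as an interaction over all 16 libraries. For Neurog2 the effect was more negative on day 7 by 1.12 on the log2 scale (log2 difference −1.12, SE 0.366, 95% interval −1.90 to −0.34, limma, adjusted p = 0.0307). It was the only one of 4 tested members called, where 29.8% of all genes were. For Neurod1 the estimate was −0.86 (SE 0.313, limma, adjusted p = 0.0507), for Insm1 0.20 (limma, adjusted p = 0.299) and for Eomes 0.25 (limma, adjusted p = 0.554). Over all alternatives the estimate ranged from 0.14 to 0.37 for Insm1 and from 0.058 to 0.41 for Eomes, never called. The call of Neurog2 was lost when any one of 8 libraries was left out: replicate 2 or 3 of shRNA CON or replicate 1 or 2 of shRNA RUS on day 5, and replicate 2 or 4 of shRNA CON or replicate 3 or 4 of shRNA RUS on day 7. It was also lost with a pseudocount of 0.01 (limma, adjusted p = 0.0567) and without the TPM minimum (limma, adjusted p = 0.0585). With a library left out, the adjusted p of these lost calls lay between 0.0512 and 0.0631 (limma; 0.00517 to 0.0631 over all alternatives), and the estimate between −0.88 and −1.10. Neurod1 passed, with adjusted p between 0.0295 and 0.0412 (limma), when replicate 1 of shRNA CON or replicate 3 of shRNA RUS on day 5, or replicate 3 of shRNA CON or replicate 1 of shRNA RUS on day 7, was left out.

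By position, the members lie on 7 chromosomes, and Neurod1 and Insm1 share chromosome 2. In GENCODE vM21 (GRCm38), Insm1 (chr2:146221921-146225020, plus strand) and Neurog1 (chr13:56250478-56252163, minus strand) have 1 exon, Neurog2 (chr3:127633135-127635631, plus strand) and the Neurod genes have 2, and Eomes (chr9:118478212-118486132, plus strand) has 5 or 6. Neurod1 (chr2:79452521-79456751, minus strand) lies wholly within the span of Cerkl on the same strand, and 201 of its 2729 exon bases are also exon of 1 of the 12 Cerkl transcripts. The deposited quantification could divide reads of these bases between both genes. Cerkl had a mean of 5.20 TPM in shRNA CON and 2.97 TPM in shRNA RUS on day 7, and 1.60 and 0.705 TPM on day 5. It was called lower on both days (log2 difference −0.92 on day 5, limma, adjusted p = 0.0104; −0.86 on day 7, limma, adjusted p = 0.0110) and higher on day 7 than on day 5 in shRNA CON (log2 difference 1.53). Its part in the values of Neurod1 was not tested. On the opposite strand, 118 of the 4155 exon bases of Eomes are shared with Gm33460, which had 0.15 to 0.42 TPM in shRNA CON on day 5, was listed at 0 in shRNA RUS on day 5 and had at most 0.12 TPM on day 7, and whether the counting used strand is not given in the sources used here. Likewise on the opposite strand, 154 of the 2729 exon bases of Neurod1 are shared with the non-coding gene Gm26755, which was not analysed here.

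Insm1 was the only member with a mean of at least 1 TPM over all libraries, so genes with a like pattern were sought for it alone, among 15898 genes of that level. Over the 16 libraries, its log2 values were most like those of Them6 (Pearson r = 0.961), Nek6 (r = 0.957) and Angptl2 (r = 0.956). Once the group means were removed, the highest values were those of Gm22661 (r = 0.904), Ppp2r3d (r = 0.887) and C1ql1 (r = 0.876). These libraries share their groups and scaling, and the first values include the differences between the 4 groups.

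Genes that work with the members were then counted, from lists written by hand. E proteins, the partners of proneural bHLH factors, and their Id, Hes and Hey inhibitors moved in both directions. On day 5, 4 of 12 tested were lower and 3 higher (median log2 difference −0.013), and on day 7, 8 of 13 were lower and 4 higher (median −0.38), beside medians of −0.061 and −0.029 of all genes. The 8 include Heyl, which reached the minimum on day 7 through shRNA CON alone (0.15 to 0.41 TPM, against 0.01 to 0.05 TPM in shRNA RUS). Without it, 7 of 12 were lower and 4 higher (median −0.37), a count added after its values were seen. For this and the following lists, the shares over all genes were 17.9% lower and 14.8% higher on day 5, and 25.8% lower and 23.4% higher on day 7. The E protein genes Tcf3 (49.3 TPM in shRNA CON and 66.3 TPM in shRNA RUS, log2 difference 0.42), Tcf4 (0.16) and Tcf12 (0.15) were higher on day 7. On day 5, Tcf4 was lower (−0.31, limma, adjusted p = 0.0413), and Tcf3 (0.24, limma, adjusted p = 0.247) and Tcf12 (−0.18, limma, adjusted p = 0.114) did not pass. The knockdown effect differed between the days for Tcf4 (0.45, limma, adjusted p = 0.00710) and Tcf12 (0.32, limma, adjusted p = 0.0252). The repressor Hes1 was lower on day 5 (15.8 and 5.62 TPM, log2 difference −1.31, limma, adjusted p = 2.24e-04) and on day 7 (27.5 and 15.9 TPM, −0.78), as was Hes5 (−0.67 and −0.83). Id1 and Id3 were lower on day 7 (−1.05 and −0.86), while on day 5 Id3 was higher (0.59) and Id1 did not pass (0.25, limma, adjusted p = 0.505). Hey2 was higher on both days (1.12 and 0.64).

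Genes of the Notch pathway, which restrains proneural expression between neighbouring cells, had 6 of 16 lower and 4 higher on day 5 (median −0.30), beside 17.9% and 14.8% of all genes. On day 7, 4 were lower and 9 higher (median 0.24), beside 25.8% and 23.4%. The list holds antagonists too, and of these Numb (0.29 and 0.42) and Numbl (0.63 and 0.79) were higher on both days. The receptor Notch1 was lower on day 5 and higher on day 7 (log2 difference −0.58 and 0.45), and so was Notch2 (−0.45 and 1.03, with 39.4 TPM in shRNA CON and 80.7 TPM in shRNA RUS on day 7). For both, the knockdown effect differed between the days (1.01 for Notch1, limma, adjusted p = 2.96e-05; 1.46 for Notch2, limma, adjusted p = 3.24e-06). The ligand Dll1, a direct target of Neurog2, was lower on both days (−0.41 and −0.32). Dll3 was lower on day 7 (−0.77), and on day 5 did not pass (−0.55, limma, adjusted p = 0.0642). Lfng, which modifies Notch receptors, was lower on both days (−0.88 and −0.68), and the coactivator Maml1 was higher on both (0.68 and 1.45).

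Of 16 tested genes reported as targets of proneural factors, 6 were lower and 1 higher on day 5 (median −0.24), and 8 were lower and 3 higher on day 7 (median −0.34), beside 17.9% lower and 14.8% higher of all genes on day 5 and 25.8% and 23.4% on day 7. The largest of these differences on day 7 was that of Cdkn1c, a cell cycle inhibitor (8.21 TPM in shRNA CON and 2.99 TPM in shRNA RUS, log2 difference −1.44, limma, adjusted p = 1.33e-05). Elavl4, an RNA-binding protein of neurons, was lower on both days (−0.93 and −0.41), as were the corepressor Rcor2 (−0.62 and −0.43) and Mfng (−0.29 and −0.47). Rnd2, a small GTPase that acts downstream of Neurog2 in migrating neurons, was higher on both days (0.53 and 0.33). Dll1, Dll3, Mfng and Hes6 stand in more than 1 of these 3 lists.

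**Figure D3:**
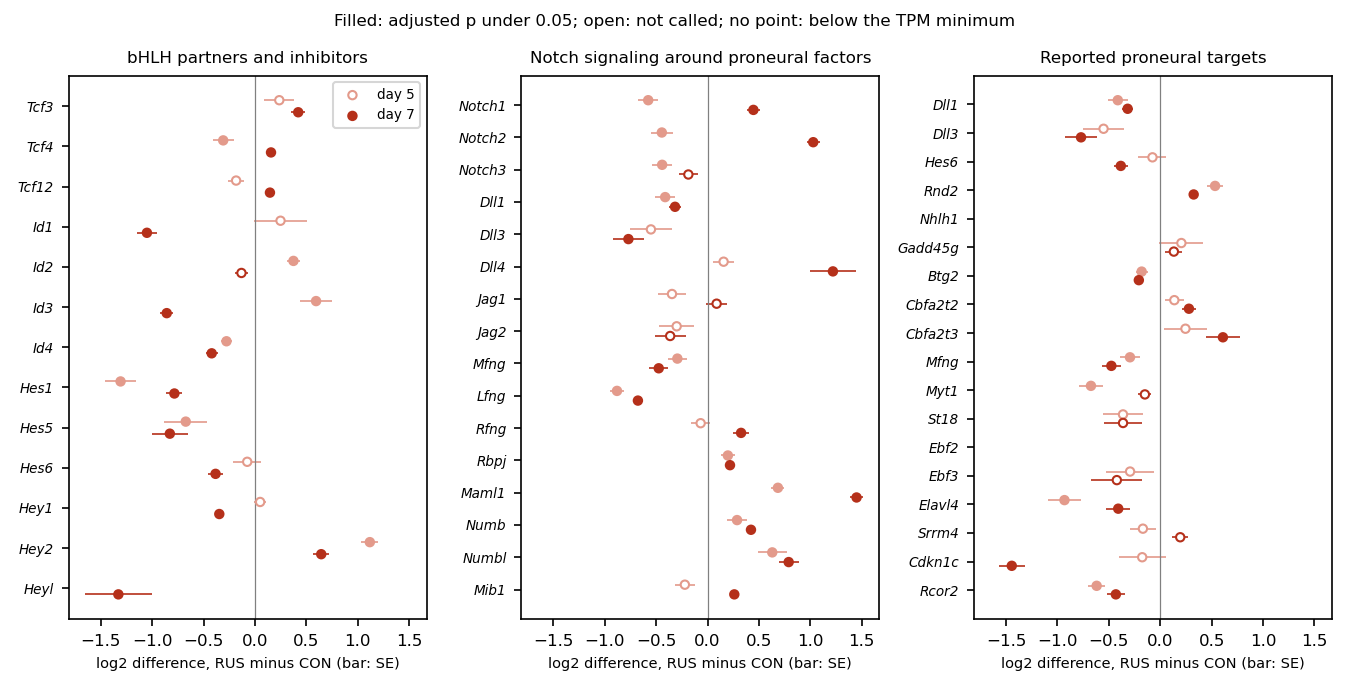
Log2 differences, shRNA RUS minus shRNA CON, on day 5 (light) and day 7 (dark) for 3 lists of genes around the proneural factors, with SE as bars, filled points for an adjusted p under 0.05 and no point for genes below the TPM minimum. Hes1, Hes5, Lfng, Dll1 and Elavl4 lie to the left on both days, and Notch1 and Notch2 lie to the left on day 5 and to the right on day 7.

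Among other neural bHLH factors, 2 of 6 tested genes were lower and 1 higher on each day, and 7 of 13 stayed below the minimum. Olig2, a factor of the oligodendrocyte lineage, was lower on both days (log2 difference −0.62, limma, adjusted p = 0.00599, and −0.69, limma, adjusted p = 7.79e-06). Atoh8 was higher on both days (0.76 and 0.64), with a mean of 20.4 TPM in shRNA CON and 31.3 TPM in shRNA RUS on day 5. These levels lie far above those of Neurog1 and Neurog2, the latter with at most 0.37 TPM on that day. This list shares Nhlh1 with the reported targets, Bhlhe22 with the young glutamatergic neuron markers, and Olig1 and Olig2 with the oligodendrocyte lineage markers, so the calls of Olig1 and Olig2 are counted in both.

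Markers of cell types also moved with the groups. Their sums are of TPM as deposited, without the library factors. Young glutamatergic neuron markers summed to 295 to 387 TPM in shRNA CON and 251 to 261 TPM in shRNA RUS on day 5, with 5 of 12 tested lower and none higher. On day 7 the sums overlapped, at 557 to 611 TPM and 557 to 631 TPM, with 2 of 13 lower and 1 higher. Tubb3, Sox4 and Dcx led this list, while Tbr1, the factor that follows Eomes in the glutamatergic lineage, had at most 0.18 TPM and the glutamate transporter Slc17a6 at most 0.19 TPM in any library. Dcx (log2 difference −0.49) and Sox4 (−0.40) were lower on day 5, while Tubb3 did not pass (−0.13, limma, adjusted p = 0.406). On day 7 Dcx (0.14, limma, adjusted p = 0.212), Sox4 (−0.032) and Tubb3 (0.021) were not called. Fezf2 was lower on both days (−0.76 and −0.44), and Bcl11b was lower on day 5 (−0.40) and higher on day 7 (0.32). Fezf2 and Bcl11b were chosen after their values were seen.

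Proliferation genes summed to 1072 to 1188 TPM in shRNA CON and 502 to 566 TPM in shRNA RUS on day 5, and to 1020.2 to 1052 TPM and 426 to 476 TPM on day 7. All 12 were lower on both days, with medians of −0.98 and −1.21. Oligodendrocyte lineage markers summed to 242 to 317 TPM and 154 to 218 TPM on day 5 and to 419.5 to 468 TPM and 263 to 293 TPM on day 7, with 4 and 8 of 10 lower and none higher. Microglia markers overlapped on day 5 (158 to 179 TPM and 139.6 to 183 TPM) and were lower on day 7 (422 to 467 TPM and 205.5 to 247 TPM, 10 of 10 lower). The part of these cell types in the values of the members was not tested.

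**Figure D4:**
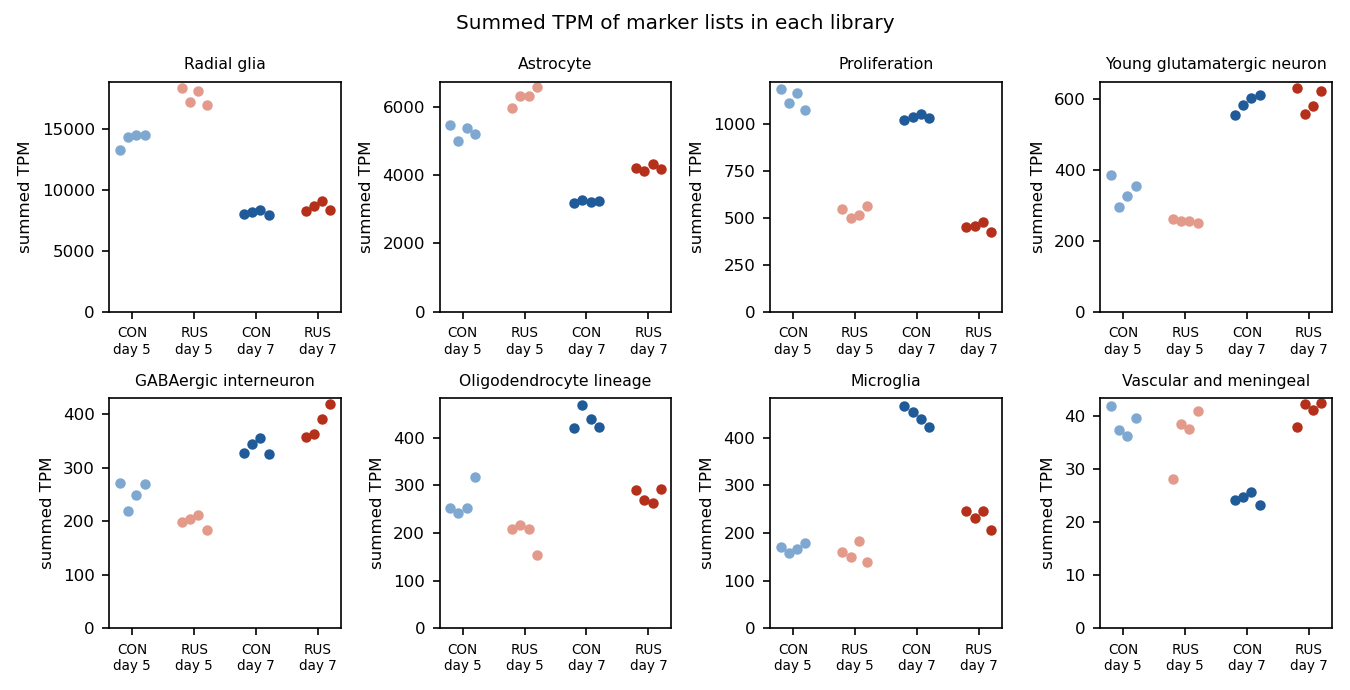
Summed TPM (vertical axis, from 0, a separate scale in each panel) of 8 marker lists in the 4 groups, with a point for each library. Proliferation sums lie at 502 to 566 TPM on day 5 and 426 to 476 TPM on day 7 in shRNA RUS, below all control libraries, microglia sums separate on day 7 only, and young glutamatergic neuron sums are lower in shRNA RUS on day 5 and overlap on day 7.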

How the data were processed

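Polyadenylated RNA of 16 libraries was sequenced on an Illumina NextSeq. Per the paper's methods, the authors aligned the reads with STAR to mm10 with the GRCm38.99 transcripts, quantified them with RSEM and compared groups with DESeq2; versions and strand are not given in the sources used here. The authors deposited, for each day, TPM per library and the base mean, a signal of normalized counts averaged over the 8 libraries. The deposited log2 fold changes with standard errors, test statistics (scores), p-values and adjusted p-values of the authors' own comparison were not used.

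TPM were divided by median-ratio library factors from the genes that reached 1 TPM in every library of a fit (0.920 to 1.11 on day 5, 0.991 to 1.01 on day 7, 0.845 to 1.10 over both days). Then log2(scaled TPM + 0.1) was tested with limma 3.58.1 (lmFit, eBayes with trend) in R 4.3.3, for genes whose mean reached 0.1 TPM, with Benjamini-Hochberg adjustment over all genes tested, threshold 0.05. Each day was fitted alone. The days were compared in 1 fit of 16 libraries, in which 106 lines whose symbols differed or were missing were left out. The tests were checked on simulated data. Depth is unknown from TPM, so no detection limit is given. The members and lists were chosen with earlier results of these data known. Named were all members, RUS, genes of the 4 lists around the proneural factors, and of each cell type list the 3 with the highest mean TPM and defining markers near 0, and for Insm1 the 3 genes most alike in pattern. Cerkl, Gm33460, the promoter word TATATAA and further genes of the cell type lists were chosen after their values or sequences were seen. Positions came from GENCODE vM21 (GRCm38), which is not the authors' release, promoters from RefSeq. Figures and sequences used Python 3.11.15, pandas 2.3.3 and matplotlib 3.10.9. The alternatives were other pseudocounts, filters and scalings, eBayes without trend, the replicate number as a block, and each library left out in turn. A few genes that this rule would name are not reported here.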

Additional observations from a re-analysis of the deposited data

Results flagged for a closer look

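Among 4 libraries of a group, the highest value of Neurog1 in shRNA CON on day 7 (0.05 TPM, with the other 3 libraries listed at 0) and that of Neurod2 in shRNA CON on day 5 (0.03 TPM, with the other 3 at 0.01 TPM) stood apart from the rest by Dixon's test. In both groups the other 3 libraries are tied, so any differing value of the remaining library would stand apart in this test, and nothing is read from it. The chance of about 1 in 20 groups holds for values without ties. The effect of RUS knockdown on Neurog2 differed between the days, by a log2 difference of −1.12 (limma, adjusted p = 0.0307). That call was lost when any one of 8 of the 16 libraries was left out (limma, adjusted p = 0.0512 to 0.0631), with a pseudocount of 0.01 and without the TPM minimum. The TPM of Neurog2 in shRNA RUS lay inside the control range in 2 libraries and below it in 2 on day 5, and below every control library on day 7.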

How the results depend on the processing

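Depth limits these results most for Neurog1, Neurod2, Neurod4 and Neurod6, whose deposited mean of normalized counts was at most 2.88. Insm1 on both days, and Neurog2 and Neurod1 on day 7, were called lower with RUS knockdown under every alternative that tested them. With a filter at 1 TPM, Insm1 alone is tested, so the members called were 1 lower with RUS knockdown on day 7, 1 lower and 0 higher between days in shRNA CON, 1 lower and 0 higher in shRNA RUS, and 0 for the difference between days. Without a filter, 5 were called lower on day 7, a count that includes Neurod4, which is listed at 0 in all shRNA RUS libraries, entered only through shRNA CON and is not read as a result, and 0 for the difference between days. The call of Neurod1 between days in shRNA RUS was lost, leaving 0 higher, with a pseudocount of 1 and with quantile normalization, and ranged from 0 to 1 with each library left out. For the difference between days, 2 members were called with a pseudocount of 1, quantile normalization or eBayes without trend, 0 with a pseudocount of 0.01, and 0 to 2 with each library left out. Values that are not called turned their sign for Neurog2 with quantile normalization (0.016 on day 5, −0.088 between days in shRNA RUS) and for Eomes on day 5 (−0.044 with TPM as deposited, −0.037 without replicate 4 of shRNA CON, and −0.037 to 0.18 with each library left out). The cause was not tested. With TPM as deposited, 28.6% of the calls over all genes between days were lower in shRNA CON and 23.1% in shRNA RUS, against 44.5% and 42.5% with library factors, and 26.5% against 48.9% for the difference.

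Within a day, replicate numbers did not clearly pair shRNA CON with shRNA RUS libraries. The correlation of same-numbered libraries, as deviations from their group means, was −0.252 to −0.016 on day 5 and 0.016 to 0.101 on day 7, and 2 of 4 numbers on day 7 and 0 on day 5 correlated best with their own. Pairing of libraries between the days was not examined. With the replicate block, the calls of members were 1 lower on day 5 and 3 lower on day 7, as without it, and those over all genes went from 7383 to 4966 on day 5 and from 12108 to 11225 on day 7.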

Other observations

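Genes of GABAergic interneurons, the other main neuronal lineage of the telencephalon, ranged widely in level. Dlx1, a homeobox factor of interneuron progenitors, had a mean of 100.9 TPM in shRNA CON on day 5 and 148 TPM on day 7, and Gad1, which makes GABA, had 26.9 and 47.4 TPM, both above every value of Neurog2, Neurod1 and Eomes. Others of the list were as scarce as those: Lhx8 had at most 0.05 TPM on day 5 and was listed at 0 on day 7, and Sst had a mean of 1.01 TPM in shRNA CON and 0.41 TPM in shRNA RUS on day 7. On day 5, 5 of 11 tested genes of this list were lower with RUS knockdown and none higher (median log2 difference −0.34), and on day 7, 2 were lower and 4 higher (median 0.16), beside 17.9% lower and 14.8% higher of all genes on day 5 and 25.8% and 23.4% on day 7. Gad1 was lower on day 5 (log2 difference −0.34, limma, adjusted p = 0.0111) and higher on day 7 (0.27, limma, adjusted p = 0.00271), and its knockdown effect differed between the days by 0.59 (limma, adjusted p = 5.50e-04).

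Astrocyte markers summed to 4991 to 5457 TPM in shRNA CON and 5958 to 6565 TPM in shRNA RUS on day 5, and to 3188 to 3258 TPM and 4108 to 4309 TPM on day 7. Of 10 tested, 2 were lower and 4 higher on day 5, and 1 lower and 5 higher on day 7. Gfap, a filament protein of astrocytes and NSC, was higher on both days (log2 difference 0.60 and 0.35), as was Aldoc (0.57 and 0.61). These genes weighed most in the day 5 sums, with means of 1797 and 1291 TPM in shRNA CON and 2434 and 1719 TPM in shRNA RUS. Gja1, next in mean TPM over all libraries, was called on neither day. Glul and Agt were also higher on both days. Slc1a2 (−0.65) and Gjb6 (−1.02) were lower on day 5, and S100b was lower on day 7 (−0.54). Radial glia markers summed to 13339 to 14570 TPM in shRNA CON and 17030.3 to 18422 TPM in shRNA RUS on day 5, without overlap, and to 7924 to 8369 TPM and 8327 to 9107 TPM on day 7, with overlap. Vim and Fabp7 made up 86.2% to 92.3% of this sum on day 5. The other 13 markers, summed without them after their values were seen, gave 1714 to 1838 TPM in shRNA CON and 1405 to 1655 TPM in shRNA RUS on day 5, and 1689 to 1812 TPM and 1572 to 1680 TPM on day 7, lower in shRNA RUS without overlap on both days. These are TPM as deposited. The library factors on day 5 were 1.02 to 1.11 in shRNA CON and 0.920 to 1.01 in shRNA RUS, and whether scaled sums overlap was not tested. Of all 15 markers, 3 were lower and 5 higher on day 5, and 7 lower and 5 higher on day 7, beside the same shares of all genes. Nes, an NSC filament protein, was lower on both days (log2 difference −0.87 and −1.19), as were Tnc (−0.86 and −0.73) and Hopx (−0.40 and −1.06). In the other direction, Vim (0.55 and 0.17), Pax6 (0.25 and 0.20), Sox9 (0.21 and 0.58) and Emx2 (0.62 and 0.80) were higher on both days. Except for Vim, these genes were chosen after their values were seen. Vascular and meningeal markers had 1 of 8 tested lower and 1 higher on day 5, and 1 lower and 3 higher on day 7. Their endothelial marker Cldn5 had at most 0.06 TPM in any library.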
